A study of Mus musculus with 6 samples.

Results

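The genes that make fatty acids and build them into triglycerides were compared between inguinal white adipose tissue (IngWAT) of 3 SAKI mice and 3 WT mice. The 35 genes were taken by gene name from a list of the pathway's enzymes and regulators, out of 34745 genes in the count files, and all 35 were among the 15400 genes with enough counts to be tested. They fall into 4 roles, with 4 genes that supply NADPH, 10 that make fatty acids or control their synthesis, 9 that desaturate or elongate them, and 12 that assemble glycerides. SAKI mice, the adipose-specific Slc35d3 knock-in, carry an LSL-Slc35d3 transgene whose stop sequence is removed by Cre driven from the adiponectin promoter, which is active in adipocytes. WT mice carry the Slc35d3 alleles without Cre, so the Cre transgene itself has no control among these mice. All 6 were males on the C57BL/6 background. They ate a standard chow (NCD, 10 kcal% fat) for 10 weeks, starting at 6 weeks old, and their labels record PBS perfusion. Each library is labelled as a separate mouse, and the whole fat pad was sequenced as poly(A) RNA.

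White adipocytes build fatty acids from cytosolic acetyl-CoA. ATP citrate lyase releases it from citrate, acetyl-CoA carboxylase makes malonyl-CoA, and fatty acid synthase uses NADPH to extend the chain to palmitate. Elongases and desaturases then lengthen the chain and introduce double bonds, with oleate as the main product of stearoyl-CoA desaturase. Glycerol 3-phosphate takes up acyl chains in turn through acyltransferases, a phosphatase and a last acyltransferase, DGAT1 or DGAT2, which closes the triglyceride. Insulin and carbohydrate drive transcription of these genes through SREBP-1c and ChREBP, encoded by Srebf1 and Mlxipl.

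Promoter sequence from RefSeq (GRCm38.p6) was found for 28 of the 35 genes and searched over the 250 bases before each start, on both strands, for 4 motifs of lipogenic promoters. The letters CCAAT, bound by NF-Y, were in 15 of the 35 promoter entries of these genes (14 of the 28 genes, some with several starts), and in 33.8% of 32851 mouse promoters of that length. The GC box GGGCGG was in 17 of the 35 entries (15 genes), against 32.7% of all promoters. The E-box CACGTG was in 3 entries (Slc25a1, Mlxipl and Elovl5), against 6.02% of all, and the sterol element letters TCACNCCAC in 1 (Mlxipl), against 1.05%. The stretch from 200 to 41 bases before the start is printed here for 5 genes, each 5′ to 3′ on the gene's own strand, with CCAAT on either strand (ATTGG on the other) in capitals. Fasn and Thrsp are shown as lipogenic genes whose mean levels were close in the 2 groups, although the WT mice were widely spread. Elovl6 is shown as the gene with the highest fold change, and Aacs and Mogat1 as genes whose SAKI and WT values did not overlap.
Fasn, chr11:120824588-120824747, minus strand: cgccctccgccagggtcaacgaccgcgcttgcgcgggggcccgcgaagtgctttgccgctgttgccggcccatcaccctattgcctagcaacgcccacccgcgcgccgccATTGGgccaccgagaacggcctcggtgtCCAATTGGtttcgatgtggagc
Thrsp, chr7:97417591-97417750, minus strand: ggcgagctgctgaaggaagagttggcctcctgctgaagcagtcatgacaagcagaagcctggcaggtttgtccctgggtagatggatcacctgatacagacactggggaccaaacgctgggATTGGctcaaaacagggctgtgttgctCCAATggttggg
Elovl6, chr3:129532186-129532345, plus strand: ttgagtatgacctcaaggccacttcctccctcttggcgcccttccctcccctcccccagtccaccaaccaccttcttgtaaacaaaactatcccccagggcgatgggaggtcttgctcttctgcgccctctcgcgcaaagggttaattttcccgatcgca
Aacs, chr5:125475673-125475832, plus strand: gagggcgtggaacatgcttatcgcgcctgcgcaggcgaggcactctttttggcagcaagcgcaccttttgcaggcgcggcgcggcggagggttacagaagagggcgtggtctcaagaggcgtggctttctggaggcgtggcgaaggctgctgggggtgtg
Mogat1, chr1:78510860-78511019, plus strand: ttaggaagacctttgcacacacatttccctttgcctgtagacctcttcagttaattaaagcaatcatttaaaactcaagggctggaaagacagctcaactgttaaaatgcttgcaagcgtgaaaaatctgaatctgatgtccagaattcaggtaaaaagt
In Fasn the CCAAT letters begin 90, 62 and 59 bases before the start, the last pair overlapping, and in Thrsp 79 and 52 bases before it. None of the 4 motifs is in the 250 bases before Elovl6, Aacs or Mogat1. The same held for the entries of Acaca, Agpat3, Lpin1, Scd3 and Scd4, at log2 fold changes of 0.49, -0.21, 0.07, -0.02 and -0.51. The Acaca stretch, from chr11:84195238, lies inside the gene, whose counted span begins at 84129672. The Lpin1 stretch, from chr12:16611007, lies outside its counted span, which ends at 16589770. Other starts of Acaca and Lpin1 were not searched. Dgat1, Dgat2 and Gpd1 were among the genes without promoter sequence. A link between motifs and fold changes was not tested. These matches describe the letters and say nothing of binding in these tissues.

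Slc35d3, the gene that the transgene adds, was at 745.3, 793.2 and 770.3 CPM (counts scaled to library size, TMM-normalized) in SAKI mice and 73.3, 82.1 and 74.4 CPM in WT mice, which gave a log2 fold change of 3.33 ± 0.12 (SE; edgeR adjusted p = 0.000244). Counts of the gene do not separate transgene from endogenous reads, and WT 2 lay with the other WT mice. The libraries held 15354161 to 18787036 counts. Markers of mature adipocytes were abundant in all 6, with Adipoq between 1304 and 1476 CPM in SAKI mice and between 1168 and 2006 CPM in WT mice. WT 2 stood apart from the other WT mice. On the first principal component, which held 47.9% of the variance, it lay at -24.4 beside the SAKI mice at -27.8 to -21.0, with WT 1 at 40.6 and WT 3 at 58.1. Its share of counts from mitochondrial genes, 13.8%, was also nearer to the 13.1% to 15.9% of SAKI mice than to the 7.31% of WT 1 and 8.78% of WT 3. Results that rest on WT 2 are therefore given with and without it.

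None of the 35 genes passed an adjusted p of 0.05 in edgeR's quasi-likelihood test, in which 0.0325% of all genes passed (5 of 15400), 0.013% lower and 0.0195% higher. The smallest adjusted p among the 35 was 0.166, for Dgat2. An unadjusted p under 0.05 was reached by 8 of the 35 genes lower in SAKI mice (G6pdx, Aacs, Fads1, Gpd1, Agpat2, Dgat1, Dgat2 and Mogat1) and by 0 genes higher in SAKI mice, beside 9.99% lower and 8.36% higher among all genes. For 5 of the 35 every SAKI value lay below every WT value (12.4% of all genes), and for 0 every SAKI value lay above (13.0%). DESeq2 called 3 genes lower, Gpd1, Dgat2 and Mogat1 (2.94% of all genes), and 0 higher (2.18%). The log2 fold change was below 0 for 26 genes and above 0 for 9, with a median of -0.18 beside -0.00 over all genes tested. In bulk tissue, fewer adipocytes and less RNA per adipocyte cannot be told apart.

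**Figure D1:**
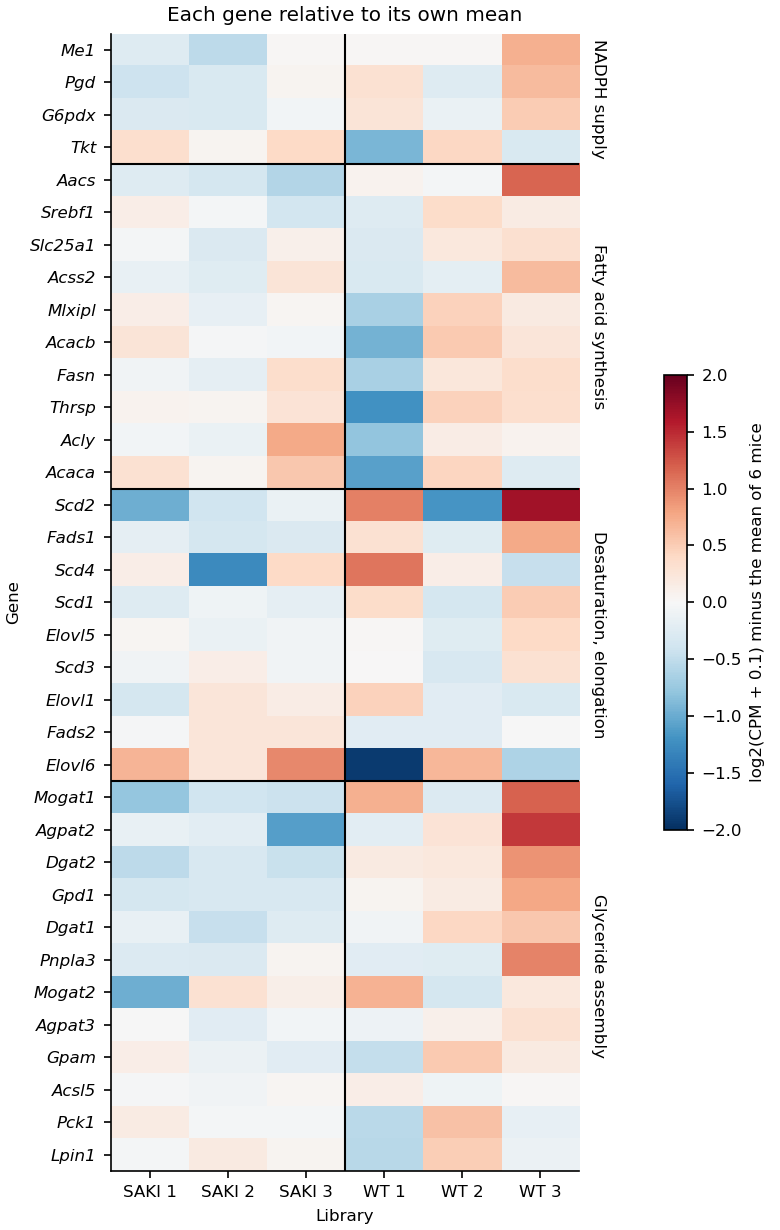
Each row is a gene and each column a mouse, and the color is the mouse's log2(CPM + 0.1) minus the gene's mean over the 6 mice, with genes ordered by log2 fold change within each role. WT 3 holds the highest value of 19 of the 35 genes, among them most upper rows of NADPH supply and glyceride assembly, and WT 1 the lowest of 12.

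The WT mice differed more among themselves than the SAKI mice did. The SD of log2 CPM was larger in WT mice for 32 of the 35 genes (91.4%), beside 78.1% of all genes tested. Its median over the 35 genes was 0.18 in SAKI mice and 0.51 in WT mice, and over all genes 0.13 in SAKI mice and 0.27 in WT mice. WT 3 was the highest of the 6 libraries for 19 of the 35 genes (54.3%, beside 27.1% of all genes) and the lowest for 0. WT 1 was the lowest for 12 (34.3%, beside 16.7% of all genes), among them Fasn, Acaca, Acacb, Acly, Thrsp, Mlxipl and Elovl6. For Thrsp, Mlxipl and Acacb the WT mice lay on both sides of the SAKI mice.

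Levels are compared between genes in FPKM, which are scaled to gene length. Scd1, which makes oleate and palmitoleate, was by far the most abundant of the 35 at 6745 ± 511 FPKM in SAKI mice and 8741 ± 2570 FPKM in WT mice (SD, n = 3 each). Pck1 followed at 573 ± 36.5 FPKM in SAKI mice and 563 ± 219 FPKM in WT mice. Next came Fasn, at 329.7 ± 72.9 FPKM in SAKI mice and 317 ± 93.3 FPKM in WT mice. Fasn and Pck1 differed by less than the spread among WT mice. Mogat2 and Scd4 closed the order, each under 1 FPKM in both groups.

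**Figure D2:**
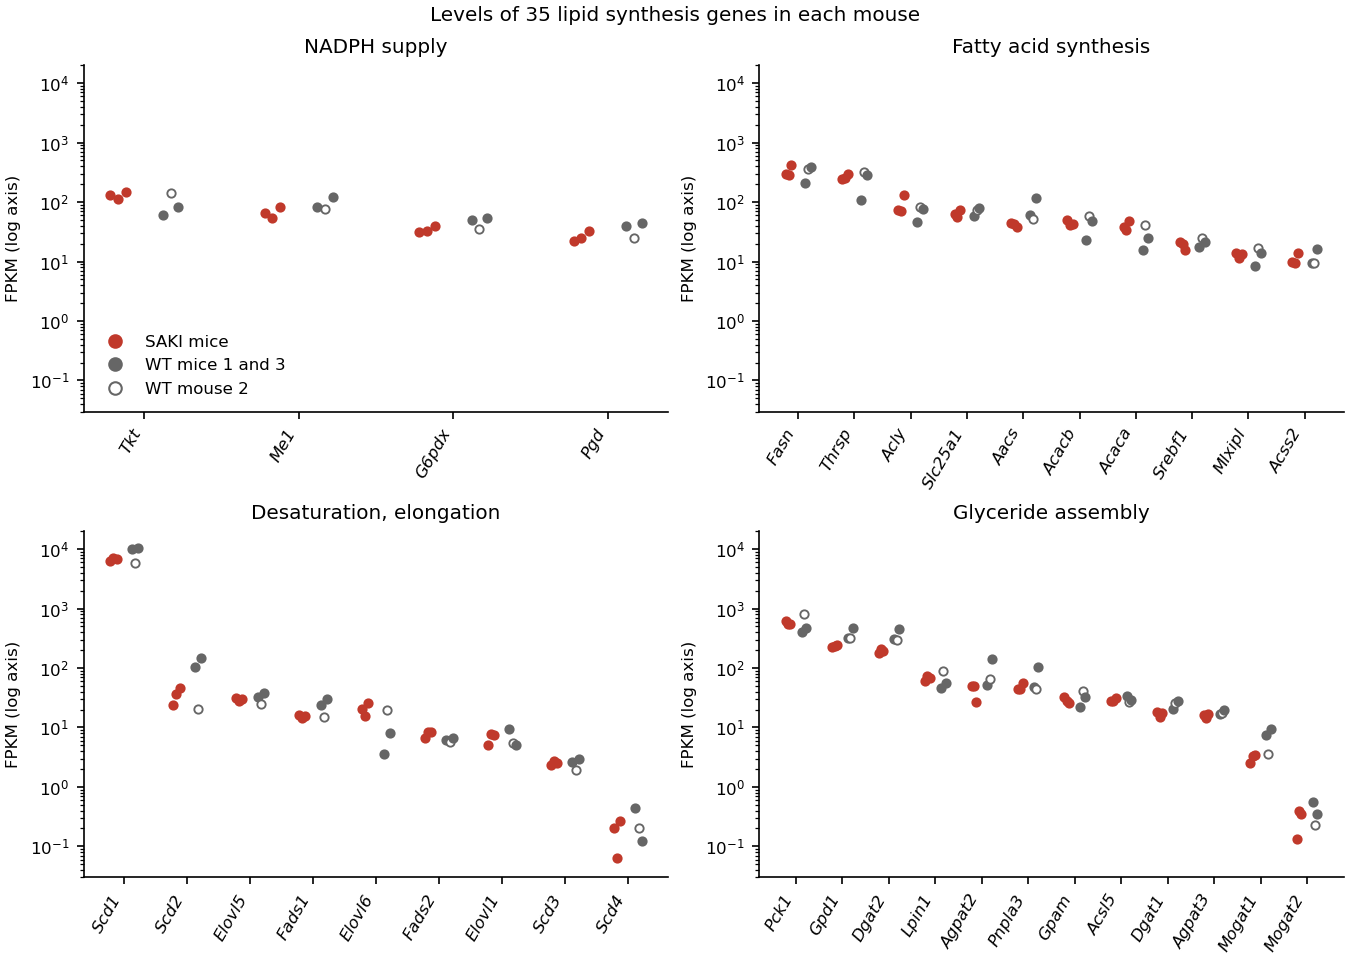
Each point is 1 mouse, with FPKM on a log axis for all 35 genes in 4 panels by role, SAKI mice in red on the left of each gene, WT mice 1 and 3 in grey and WT mouse 2 as an open circle. Scd1 lies far above every other gene, and the open circle often lies apart from the filled grey ones, as for Scd2, Elovl6 and Tkt.

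Of the 4 genes of NADPH supply, 3 had log2 fold changes below 0, with a median of -0.47 over the 4. G6pdx, the first enzyme of the pentose phosphate pathway, was at 125, 123 and 146 CPM in SAKI mice and 182, 139 and 216 CPM in WT mice. Its log2 fold change was -0.45 ± 0.18 (SE; adjusted p = 0.252), and WT 2 lay within the SAKI range. Ikbkg overlaps it on the opposite strand with 30.9% as many counts, and had a log2 fold change of -0.06. Pgd, the second NADPH-making enzyme of that pathway, was at 167, 180 and 233 CPM in SAKI mice and 275, 188 and 347 CPM in WT mice. Its log2 fold change was -0.48 ± 0.24 (SE; adjusted p = 0.328), again with WT 2 within the SAKI range. Me1, cytosolic malic enzyme, was at 365, 304 and 446 CPM in SAKI mice and 444, 443 and 719 CPM in WT mice. SAKI 3 lay just above the lower WT mice, and the log2 fold change was -0.53 ± 0.24 (SE; adjusted p = 0.29). Tkt, transketolase of the non-oxidative branch, went the other way, at 1013, 833 and 1053 CPM in SAKI mice and 428, 1073 and 653 CPM in WT mice. WT 2 was the highest of all 6 for Tkt, and the log2 fold change was 0.43 ± 0.32 (SE; adjusted p = 0.49).

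Among the 10 genes of fatty acid synthesis, 6 log2 fold changes were below 0 and 4 above, with a median of -0.03. Fasn was at 4185, 3868 and 5589 CPM in SAKI mice and 2797, 5124 and 5593 CPM in WT mice, which gave a log2 fold change of 0.01 with a 95% interval of -0.68 to 0.70. That interval leaves room for a change of either sign, and WT 1 alone lay below the SAKI mice. Acaca, the cytosolic acetyl-CoA carboxylase, was at 798, 670 and 937 CPM in SAKI mice and 302, 871 and 538 CPM in WT mice. Acacb, the isoform at the mitochondrial surface whose malonyl-CoA restrains fatty acid oxidation, was at 660, 542 and 532 CPM in SAKI mice and 287, 794 and 655 CPM in WT mice. WT 1 was the lowest for both, and the log2 fold changes were 0.49 ± 0.36 for Acaca and -0.00 ± 0.34 for Acacb (SE; adjusted p = 0.484 and 0.999). Acly, ATP citrate lyase, was at 606, 574 and 1064 CPM in SAKI mice and 360, 691 and 654 CPM in WT mice. SAKI 3 was the highest for Acly, and its log2 fold change of 0.40 ± 0.33 (SE; adjusted p = 0.533) was within the spread of both groups.

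Thrsp, the lipogenic protein Spot 14, was at 675, 663 and 770 CPM in SAKI mice and 277, 884 and 809 CPM in WT mice. Both higher WT mice lay above every SAKI mouse and the third far below, with a log2 fold change of 0.10 ± 0.39 (SE; adjusted p = 0.909). Srebf1 was at 199, 177 and 141 CPM in SAKI mice and 152, 233 and 202 CPM in WT mice. Mlxipl was at 123, 101 and 116 CPM in SAKI mice and 71.9, 156 and 128 CPM in WT mice. The groups overlapped for both regulators, with log2 fold changes of -0.18 ± 0.20 for Srebf1 and -0.07 ± 0.27 for Mlxipl (SE). Slc25a1, which exports citrate from mitochondria, was at 246, 207 and 272 CPM in SAKI mice and 208, 292 and 317 CPM in WT mice. Acss2, which makes cytosolic acetyl-CoA from acetate, was at 128, 121 and 171 CPM in SAKI mice and 115, 125 and 220 CPM in WT mice. Neither of them separated the groups, at log2 fold changes of -0.17 ± 0.19 for Slc25a1 and -0.13 ± 0.27 for Acss2 (SE). The spans of Rai1, Cdc20 and Gss overlap those of Srebf1, Elovl1 and Acss2 on the opposite strand, with 14.3%, 13.4% and 11.9% as many counts. These percentages compare whole-gene counts. Reads in the shared stretches were not counted, so how many are uncertain is not known.

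Aacs was the 1 gene of the 10 of fatty acid synthesis whose groups did not overlap, beside 12.4% of all genes lower with no overlap. It encodes acetoacetyl-CoA synthetase, which activates the ketone body acetoacetate for lipid synthesis. It was at 215, 202 and 173 CPM in SAKI mice and 273, 251 and 580 CPM in WT mice. The SAKI mice all lay below the lowest WT mouse, and WT 3 was far above the other 5. The log2 fold change was -0.90 ± 0.32 (SE; adjusted p = 0.23), and -0.41 without WT 3.

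The 9 genes of desaturation and elongation had a median log2 fold change of -0.14, with 6 below 0 and 3 above. Scd1 took 2.99%, 3.47% and 3.32% of all counts in SAKI mice and 4.91%, 2.79% and 4.97% in WT mice, which made it the first gene by counts in WT 1 and WT 3 and the second in the other 4 libraries. The widest Wilson 95% interval of these shares was 4.96% to 4.99%, for counting error only. WT 2 lay below every SAKI mouse and the other WT mice above, and the log2 fold change was -0.39 ± 0.28 (SE; adjusted p = 0.47). Scd2, the paralog best known from brain, was at 134, 200.2 and 241 CPM in SAKI mice and 533, 116 and 841 CPM in WT mice. It split the WT mice in the same way, with a log2 fold change of -1.37 ± 0.63 (SE; adjusted p = 0.294). Scd3 and Scd4, paralogs beside them on chromosome 19, were low, Scd3 between 7.003 and 10.9 CPM and Scd4 between 0.26 and 1.72 CPM over the 6 mice, with log2 fold changes of -0.02 for Scd3 and -0.51 for Scd4. Of the 50-base stretches of the 4 Scd transcripts, 3.44% to 6.37% occur in a paralog, so reads from those stretches are uncertain.

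Elovl6, which elongates palmitate to stearate, had the highest log2 fold change of the 35. It was at 229, 169 and 280 CPM in SAKI mice and 37.9, 226 and 92.9 CPM in WT mice. WT 2 lay within the SAKI range and the other WT mice below it. The log2 fold change was 0.93 ± 0.58 (SE; adjusted p = 0.418). Elovl5, which acts on polyunsaturated chains, was at 121, 107 and 113 CPM in SAKI mice and 120, 99.9 and 156 CPM in WT mice, which gave a log2 fold change of -0.14 ± 0.17 (SE). Elovl1, for very long saturated chains, lay between 27.3 and 41.2 CPM in SAKI mice and between 28.3 and 48.2 CPM in WT mice. These elongases overlapped between the groups.

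Fads1 and Fads2, the delta-5 and delta-6 desaturases of polyunsaturated fatty acids, are neighbours on chromosome 19 and had log2 fold changes of opposite sign. Fads1 was at 56.2, 49.7 and 51.8 CPM in SAKI mice and 78.4, 53.7 and 107 CPM in WT mice. Its log2 fold change was -0.60 ± 0.24 (SE; adjusted p = 0.253), with WT 2 inside the SAKI range. Fads2 was at 10.2, 12.4 and 12.4 CPM in SAKI mice and 8.90, 8.88 and 10.3 CPM in WT mice. The groups overlapped at SAKI 1 and WT 3, and the log2 fold change was 0.32 ± 0.16 (SE; adjusted p = 0.327).

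Glyceride assembly held 11 of 12 log2 fold changes below 0 (50.4% of all genes), with a median of -0.41. It also held 4 of the 5 genes whose groups did not overlap. Among all genes, 12.4% were lower with no overlap, and the 5 of 35 genes were close to that share. Dgat2, the acyltransferase that uses newly made fatty acids for the last step of triglyceride synthesis, was at 403, 464 and 426 CPM in SAKI mice and 661, 673 and 1082 CPM in WT mice. Even the lowest WT mouse lay well above the highest SAKI mouse. The log2 fold change was -0.90 ± 0.21 (SE), a 1.87-fold higher level in WT mice, with an adjusted p of 0.166 in edgeR and 0.00461 in DESeq2. Dgat1, the other enzyme of that step, was at 100.3, 80.5 and 93.5 CPM in SAKI mice and 106, 148 and 162 CPM in WT mice. The gap between SAKI 1 and WT 1 was narrow, and the log2 fold change was -0.60 ± 0.18 (SE; adjusted p = 0.192 in edgeR and 0.0607 in DESeq2).

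Gpd1, which makes the glycerol 3-phosphate backbone from a glycolytic intermediate, was at 899, 921 and 926 CPM in SAKI mice and 1194, 1297 and 1979 CPM in WT mice. The SAKI mice lay close together and below all WT mice. Its log2 fold change was -0.70 ± 0.21 (SE; adjusted p = 0.192 in edgeR and 0.0289 in DESeq2). Pck1, whose product PEPCK makes glycerol backbone from pyruvate in fat, was at 3502, 3045 and 3035 CPM in SAKI mice and 2146, 4694 and 2787 CPM in WT mice. The groups overlapped, with a log2 fold change of -0.01 and a 95% interval of -0.69 to 0.68. Mogat1, a monoacylglycerol acyltransferase, was low, at 7.30, 9.51 and 9.36 CPM in SAKI mice and 20.6, 10.4 and 28.5 CPM in WT mice. WT 2 lay just above SAKI 2, and the log2 fold change was -1.18 ± 0.35 (SE; adjusted p = 0.192 in edgeR and 0.0291 in DESeq2). BC035947, on the opposite strand of Mogat1 with 31.8% as many counts, had a log2 fold change of -1.27, and without a stated strand setting the reads of the overlap cannot be assigned.

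**Figure D3:**
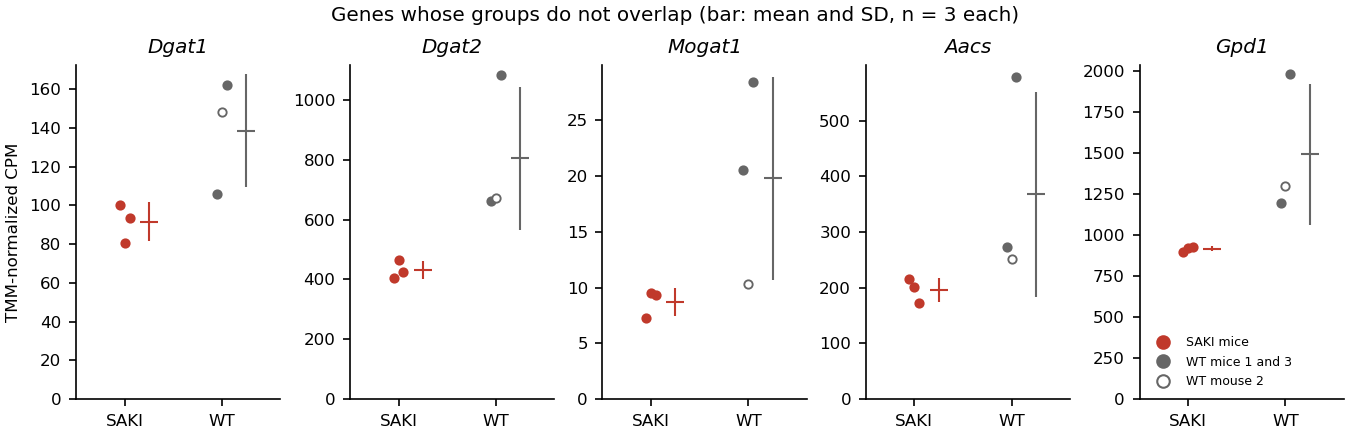
TMM-normalized CPM of the 5 genes with no overlap between groups, 1 point per mouse, with each group's mean and SD (n = 3 each) beside its points and axes from 0. All SAKI points lie below all WT points in each panel, by the smallest margin in Dgat1 and Mogat1, and WT 3 is the highest point of each.

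Agpat2, which adds the second acyl chain and whose loss causes lipodystrophy in humans and mice, was at 139, 133 and 71.6 CPM in SAKI mice and 134, 186 and 411 CPM in WT mice. WT 1 lay among the SAKI mice, and the log2 fold change was -1.09 ± 0.45 (SE; adjusted p = 0.264), or -0.49 without WT 3. The endothelial gene Egfl7 overlaps Agpat2 on the opposite strand with 42.9% as many counts and a log2 fold change of -0.42. Agpat3 was at 186, 160 and 180 CPM in SAKI mice and 175, 202 and 232 CPM in WT mice, which gave a log2 fold change of -0.21 ± 0.14 (SE). Its groups overlapped through WT 1. Pnpla3, an acyltransferase and lipase of the lipid droplet, was at 206, 202 and 257 CPM in SAKI mice and 211, 209 and 495 CPM in WT mice. WT 3 alone stood above the others for Pnpla3.

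Gpam, the mitochondrial enzyme that adds the first acyl chain, was at 124, 105 and 96.8 CPM in SAKI mice and 81.6, 163 and 128 CPM in WT mice. Acsl5, which activates fatty acids to acyl-CoA, was at 90.5, 87.4 and 95.01 CPM in SAKI mice and 101, 86.4 and 94.0 CPM in WT mice. Acsl5 was the steadiest gene of the group, with a log2 fold change of -0.04 ± 0.10 (SE) and a 95% interval of -0.28 to 0.20. Lpin1, the phosphatidate phosphatase, was at 358, 418 and 383 CPM in SAKI mice and 250, 517 and 339 CPM in WT mice. WT mice lay on both sides of the SAKI mice for Gpam and Lpin1, at log2 fold changes of -0.19 ± 0.25 for Gpam and 0.07 ± 0.25 for Lpin1 (SE). Mogat2, a neighbour of Dgat2 on chromosome 7, stayed between 0.26 and 1.04 CPM over the 6 mice.

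Adipocyte markers, like most glyceride genes, had log2 fold changes below 0. The mean of the adipocyte markers was 10.23 log2 CPM in WT 2, 10.16 in WT 3 and 9.80 in WT 1. That of the glyceride genes was 7.29 in WT 2, 7.66 in WT 3 and 7.10 in WT 1. In both sets WT 1 was the lowest WT mouse. All 16 markers of mature adipocytes on a list had log2 fold changes below 0, beside 50.4% of all genes, and 6 of them had no overlap (12.4% of all genes), Retn, Plin4, Cidec, Fabp4, Lipe and Slc2a4. The mean log2 CPM of the 16 markers was 9.74 ± 0.09 in SAKI mice and 10.06 ± 0.23 in WT mice (SD, n = 3 each). The mean of WT 1 at 9.80 lay within the SAKI range of 9.68 to 9.85. The 6 markers with no overlap were, by definition, higher in WT 1 than in every SAKI mouse. The summed level of the 16 lay between 26790 and 30300 CPM in SAKI mice and between 28970 and 38430 CPM in WT mice, and none was at 0. T cell, macrophage and fibroblast markers were on average higher in SAKI mice. T cell markers averaged 5.91 ± 0.10 log2 CPM in SAKI mice and 5.15 ± 0.34 in WT mice, and macrophage markers 7.06 ± 0.18 in SAKI mice and 6.33 ± 0.60 in WT mice (SD, n = 3 each). Fibroblast and progenitor markers averaged 8.34 ± 0.05 log2 CPM in SAKI mice and 7.87 ± 0.60 in WT mice, with WT 2 at 8.53 (SD, n = 3 each). Endothelial markers averaged 6.69 ± 0.06 log2 CPM in SAKI mice and 6.88 ± 0.01 in WT mice, B cell markers 6.62 ± 0.11 in SAKI mice and 6.31 ± 0.40 in WT mice, and skeletal muscle markers 6.23 ± 1.54 in SAKI mice and 6.26 ± 1.84 in WT mice (SD, n = 3 each). With the adipocyte marker level as a covariate, the median log2 fold change was -0.16 for glyceride assembly and 0.71 for fatty acid synthesis. That covariate was itself lower on average in SAKI mice, and a fit to 6 mice cannot fully separate it from genotype. Beige and brown markers averaged 3.51 ± 0.16 log2 CPM in SAKI mice and 3.97 ± 1.03 in WT mice, and immediate early genes, 11 of 12 of them below 0, averaged 4.59 ± 0.24 in SAKI mice and 5.16 ± 0.55 in WT mice (SD, n = 3 each). Both were highest in WT 3, at 4.96 for the beige and brown markers and 5.69 for the immediate early genes, the mouse with the highest value of most lipid synthesis genes. Skin and sebaceous epithelium markers, of which 5 of 10 were tested, were low, at -0.02 ± 0.27 log2 CPM in SAKI mice and 0.35 ± 0.85 in WT mice (SD, n = 3 each). They too were highest in WT 3, at 1.27, with the other libraries between -0.39 and 0.27. The part of cell makeup or of the immediate early genes in the values of the lipid synthesis genes was not tested.

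WT 2 decided several calls. It was singled out in these same data, as the WT mouse nearest the SAKI mice on the first principal component. Leaving it out favours larger differences between the groups, so calls made without it are not independent support for a difference. Without WT 2, 6 of the 35 genes were lower at an adjusted p under 0.05 in edgeR (9.14% of all genes), G6pdx, Pgd, Scd2, Fads1, Dgat2 and Mogat1, and 2 were higher (7.41%), Tkt and Elovl6. Over all genes 2598 were then called, against 5 with all 6 mice. The Scd2 log2 fold change was -1.84 ± 0.29 without WT 2 and -1.37 ± 0.63 with it (SE; adjusted p = 0.0138 and 0.294). That of Elovl6 was 1.79 ± 0.41 without WT 2 and 0.93 ± 0.58 with it (SE; adjusted p = 0.0351 and 0.418). Tkt stood at 0.84 ± 0.21 without WT 2 and Dgat2 at -1.01 ± 0.21 (SE; adjusted p = 0.0436 and 0.0271). Fads1 stood at -0.82 ± 0.15 without WT 2 and Mogat1 at -1.49 ± 0.20 (SE; adjusted p = 0.0201 and 0.00914). Both other WT mice also moved these values. With WT 3 left out in place of WT 2, Scd2 was at -0.76, Mogat1 at -0.83, Dgat2 at -0.63, Gpd1 at -0.45, Fads1 at -0.33, G6pdx at -0.29 and Pgd at -0.26. With WT 1 left out, Elovl6 was at 0.50 and Tkt at 0.16. Just short of the threshold without WT 2 were Gpd1 at -0.79, Scd1 at -0.61, Aacs at -1.11 and Acaca at 0.93 (adjusted p = 0.0505, 0.051, 0.052 and 0.0639). Leaving out any of the other 5 libraries called 0 of the 35. WT 2 lay within the SAKI range for 13 of the 35 genes, WT 1 for 8 and WT 3 for 7. Of all genes, 34.1% of the WT 2 values lay within it, 26.7% of the WT 1 values and 21.7% of the WT 3 values.

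**Figure D4:**
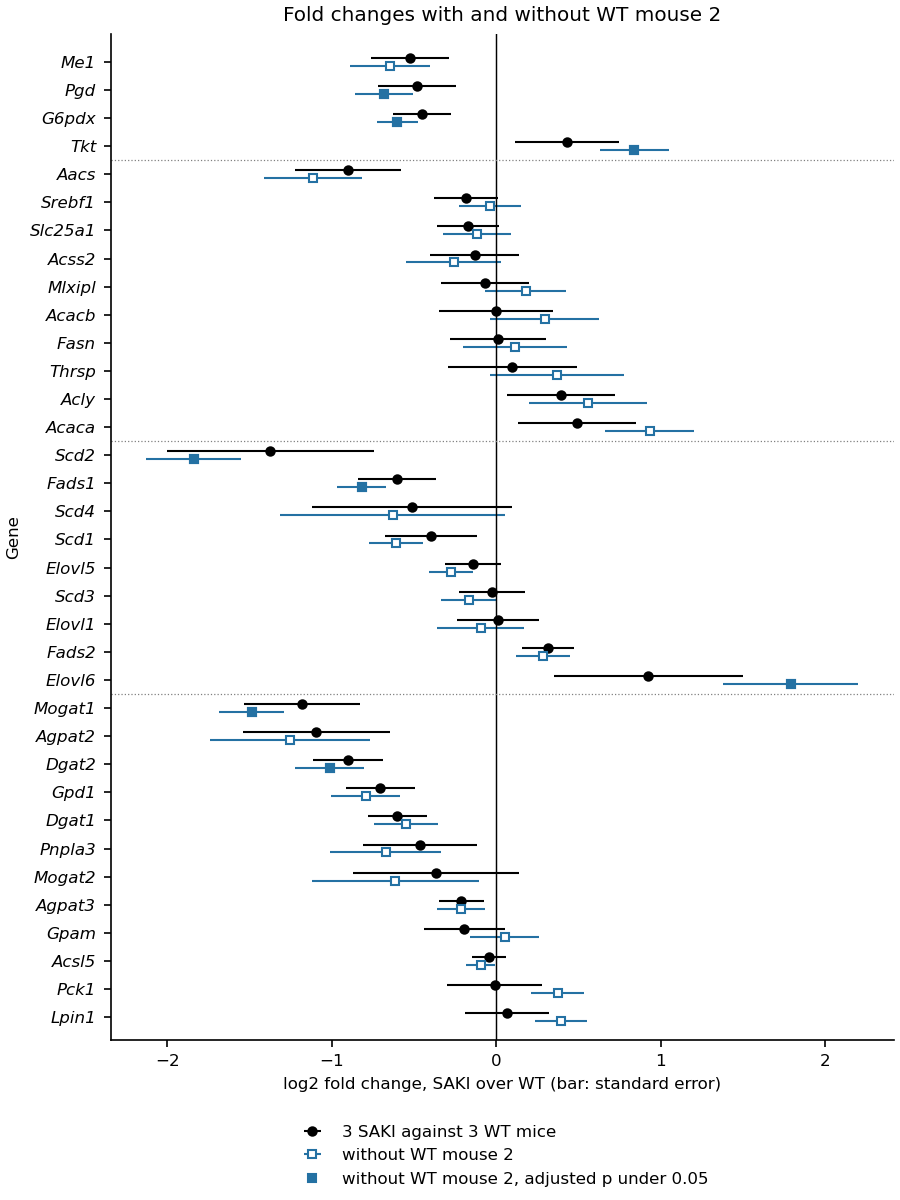
Log2 fold changes of SAKI over WT with standard errors for the 35 genes, in black with all 6 mice and in blue squares without WT mouse 2, filled where the adjusted p was under 0.05. The 8 filled squares are 2 on the right (Tkt and Elovl6) and 6 on the left, while Dgat1 and Gpd1 moved by less than their standard errors when WT 2 was left out.

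Within paralog families, the balance of the members was compared as each gene's percent of the family's FPKM in each mouse, in an exact two-sided permutation test over 6 families whose smallest possible p with 3 against 3 mice is 0.1. Acaca held 43.8%, 44.3% and 53.1% of the acetyl-CoA carboxylase FPKM in SAKI mice and 40.4%, 41.4% and 34.6% in WT mice. Every SAKI share lay above every WT share, WT 2 included (exact p = 0.1, Benjamini-Hochberg 0.3). Fads1 held 70.6%, 63.6% and 64.6% of the Fads1 and Fads2 FPKM in SAKI mice and 79.4%, 72.5% and 81.9% in WT mice. Here every SAKI share lay below every WT share (exact p = 0.1, Benjamini-Hochberg 0.3). Elovl6 held 36.3%, 30.1% and 41.1% of the FPKM of the 3 elongases in SAKI mice and 7.88%, 39.5% and 15.6% in WT mice. WT 2 lay within the SAKI range for that share (exact p = 0.3). Dgat2 held 90.7%, 93.4% and 91.7% of the Dgat FPKM in SAKI mice and 93.8%, 91.7% and 94.2% in WT mice (exact p = 0.3). The shares overlapped, and a difference between the groups was not detectable with these mice. The Agpat2 share averaged 71.3 ± 8.38% in SAKI mice and 80.8 ± 6.29% in WT mice (SD, n = 3 each; exact p = 0.2). Scd2 held 0.36% to 1.41% of the Scd FPKM over the 6 mice and Scd1 nearly all of the rest (exact p = 0.4 for Scd2). The very small Scd3 share was 0.0381%, 0.0385% and 0.0359% in SAKI mice and 0.026%, 0.0338% and 0.0287% in WT mice, with no overlap (exact p = 0.1). Scd3 was outside the Benjamini-Hochberg adjustment, which took 1 gene per family. No p of the 6 families passed 0.05, which the design could not reach.

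**Figure D5:**
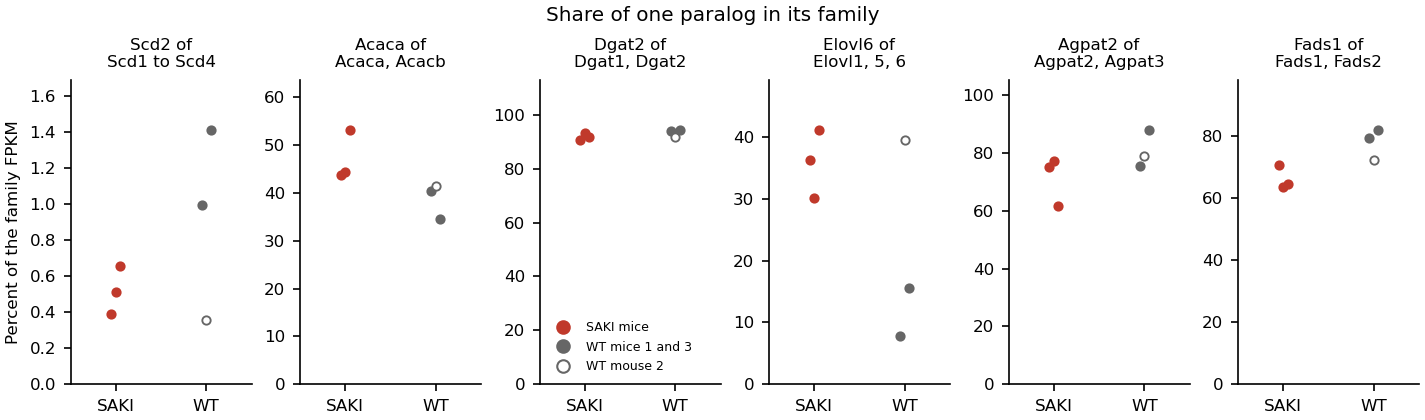
Percent of a family's summed FPKM held by 1 paralog in each mouse, SAKI mice in red on the left and WT mice in grey, with WT mouse 2 open and each axis from 0. Only in the Acaca and Fads1 panels do the SAKI points and the WT points not overlap, and in the Scd2 and Elovl6 panels WT mouse 2 lies with or beside the SAKI mice.

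The 35 genes together took 4.58%, 4.96% and 5.17% of all counts in SAKI mice and 6.18%, 4.73% and 6.94% in WT mice. Most of these were Scd1 counts. Without Scd1 the shares were 1.59%, 1.49% and 1.85% in SAKI mice and 1.27%, 1.94% and 1.97% in WT mice, so the order of the mice changed and WT 1 was the lowest. In the genome the 35 genes lie on 15 chromosomes, 8 of them on chromosome 19, where Scd1 to Scd4, Fads1 with Fads2, and Gpam with Acsl5 form 3 clusters of neighbours. In the Scd cluster log2 fold changes ran from -1.37 for Scd2 to -0.02 for Scd3, with overlapping 95% intervals (-2.86 to 0.11 and -0.50 to 0.45). Fads1 and Fads2 stood at -0.60 and 0.32, and Gpam and Acsl5 at -0.19 and -0.04. Differences between neighbours were not tested.

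Other genes of the pathway, from lists of 69 names with 63 tested, lay mostly below 0 as well. For these, 47 log2 fold changes were below 0 and 16 above (50.4% of all genes were below 0), the median was -0.17, and 0 passed an adjusted p of 0.05 in edgeR. An unadjusted p under 0.05 was reached by 12 lower and 2 higher genes (9.99% and 8.36% of all genes), and DESeq2 called 5 lower and 0 higher (2.94% and 2.18%). The groups did not overlap for 13 genes lower in SAKI mice and 4 higher (12.4% and 13.0% of all genes). In glyceride assembly 16 of 18 lay below 0 with a median of -0.35. Plpp1, a lipid phosphatase, was at 27.0, 20.2 and 28.4 CPM in SAKI mice and 47.9, 32.0 and 48.4 CPM in WT mice, which gave a log2 fold change of -0.76 ± 0.21 (SE; adjusted p = 0.181). Agpat4 had a log2 fold change of -0.47 ± 0.15 (SE; adjusted p = 0.208), and like Plpp1 and Acsl1 (-0.87 ± 0.25) its groups did not overlap. In desaturation and elongation, Hsd17b12, the ketoacyl reductase of the elongation cycle, was at 83.4, 76.5 and 88.9 CPM in SAKI mice and 299.6, 83.8 and 204 CPM in WT mice. WT 2 again lay within the SAKI range, and the log2 fold change was -1.24 ± 0.41 (SE; adjusted p = 0.21). Fads3, a further desaturase-like gene of the Fads cluster, was at 189, 232 and 180 CPM in SAKI mice and 473, 240.0 and 367 CPM in WT mice, which gave a log2 fold change of -0.85 ± 0.25 (SE; adjusted p = 0.191). Cyb5b, a cytochrome b5, had a log2 fold change of -0.60 ± 0.27 (SE).

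In fatty acid synthesis, the mitochondrial acetate enzyme Acss1 was 1 of the 4 other pathway genes higher in every SAKI mouse, at 54.4, 57.0 and 55.0 CPM in SAKI mice and 39.2, 49.7 and 38.2 CPM in WT mice. Its log2 fold change was 0.39 ± 0.13 (SE; adjusted p = 0.21), while its cytosolic counterpart Acss2 overlapped between the groups. Mecr, a reductase of mitochondrial fatty acid synthesis, was at 38.3, 39.4 and 39.2 CPM in SAKI mice and 52.7, 45.4 and 64.4 CPM in WT mice, which gave a log2 fold change of -0.48 ± 0.14 (SE; adjusted p = 0.192). Pcx, pyruvate carboxylase, had a log2 fold change of -0.38 ± 0.16 (SE; adjusted p = 0.27). Among the regulators, Nr1h3 (LXR alpha) lay lower in every SAKI mouse, at -0.47 ± 0.10 (SE; adjusted p = 0.163). Mlx, the partner of ChREBP, was higher in every SAKI mouse at 0.36 ± 0.18 (SE), and Mbtps2, a protease that releases SREBP, stood at 0.29 ± 0.14 (SE). In NADPH supply, H6pd of the endoplasmic reticulum stood at -0.38 ± 0.16, Rpe at -0.42 ± 0.19 and Me2, a mitochondrial malic enzyme, at 0.30 ± 0.13 (SE), each with overlapping groups.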

How the data were processed

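RNA-seq of IngWAT from 3 SAKI and 3 WT mice was analysed. Per library, the authors deposited whole-number counts of reads for each gene. They also deposited an FPKM table over all libraries, which holds those counts divided by gene length and library total. The tools listed with the samples are Bowtie2 2.2.6, HISAT2 2.0.4 and StringTie 1.3.0, with build GRCm38 and no role for any of them. Which tool counted, on which strand and with which annotation is not given in the sources used here.

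Counts were fitted with edgeR 4.0.16 in R 4.3.3 on the whole table: filterByExpr (minimum count 10, total 15), TMM factors, genotype alone, the quasi-likelihood test and Benjamini-Hochberg adjustment over 15400 genes. Log2 fold changes are SAKI over WT. CPM are TMM-normalized. Levels of different genes were compared in FPKM only. Alternatives were DESeq2 1.42.0, limma 3.58.1 (voom on counts, and a trend fit on log2(FPKM + 1) or log2(FPKM + 0.1)), other scalings and filters, each library left out in turn, the replicate number as a block and a mature adipocyte score as a covariate. Fits to counts were first tested on simulated counts of all genes that passed the filter, 200 of which were given a fold change. That test did not cover every step or every alternative listed here. With 3 mice a group and a biological coefficient of variation of 23.3%, small changes were not detectable.

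The 35 genes, the other pathway lists and the marker lists were chosen with earlier results of these data known. Values in every library are given for genes with a mean of at least 10 FPKM and for the 3 of smallest p in each role (4 in glyceride assembly, where 2 tied), and the other pathway genes named are the 3 of smallest p per list. Gpat3 and Plpp1 to Plpp3 were matched by gene ID. Promoters are from RefSeq, which had no entry here for 7 of the 35 genes, and the windows printed stop 41 bases before the start.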

Additional observations from a re-analysis of the deposited data

How the results depend on the processing

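None of the 35 genes was called by edgeR with all 6 mice, and 0 were called under RLE or upper-quartile scaling, limma-voom, either filter, the replicate block, the FPKM fits or the adipocyte covariate. DESeq2 called 3 genes lower, and 728 over all genes. Calls over all genes numbered 8 with no filter on low counts, 9 in the FPKM fits with a pseudocount of 1 and of 0.1, and 2 with the adipocyte score as a covariate. The FPKM fits, with or without a filter, put 1 of the 35 higher and 5 lower at an unadjusted p under 0.05 (limma), against 0 and 8 in edgeR. Of all genes, 7.53% to 9.65% were higher and 5.43% to 8.15% lower in the FPKM fits, against 8.36% and 9.99% in edgeR. Leaving out 1 library at a time gave 0 to 2 genes called higher and 0 to 6 lower, all of them without WT 2. At an unadjusted p under 0.05 it gave 0 to 4 higher and 4 to 12 lower, and over all genes 1 to 2598 calls. Median log2 fold changes then ranged from -0.32 to -0.10 for the 35 genes, -0.62 to -0.26 for NADPH supply, -0.31 to 0.15 for fatty acid synthesis, -0.28 to -0.03 for desaturation and elongation and -0.58 to -0.28 for glyceride assembly.

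The adipocyte covariate put 8 of the 35 genes higher and 2 lower at an unadjusted p under 0.05 (6.91% and 7.15% of all genes in that fit), with medians of 0.71 for fatty acid synthesis, -0.61 for desaturation and elongation and -0.16 for glyceride assembly. The covariate was itself lower on average in SAKI mice, so it is not independent of genotype. Under it the log2 fold change turned to 0.23 for Slc25a1, 0.16 for Acss2, 1.15 for Acacb, 0.30 for Srebf1, 0.76 for Mlxipl, -0.61 for Elovl1, 0.72 for Pck1, 0.55 for Gpam and 0.02 for Agpat3. Genes near 0 changed sign under other settings. Acacb was at 0.03 with upper-quartile scaling and with a mean of at least 5 CPM, 0.12 in limma-voom, 0.11 with the replicate block, 0.13 on FPKM with a pseudocount of 1 (filtered or not) and 0.14 with 0.1. Pck1 was at 0.02, 0.02, 0.07, 0.07, 0.09 and 0.09 in the same order. Scd3 was at 0.02 with upper-quartile scaling, 0.00 with a mean of at least 5 CPM, 0.01 on FPKM with a pseudocount of 1 and 0.02 with 0.1. Mlxipl was at 0.02 in each FPKM fit. With 1 library left out, the log2 fold change ranged from -0.33 to 0.30 for Acacb, -0.13 to 0.30 for Elovl1, -0.24 to 0.20 for Fasn, -0.15 to 0.39 for Lpin1, -0.17 to 0.14 for Scd3, -0.23 to 0.38 for Pck1, -0.27 to 0.37 for Thrsp, -0.89 to 0.08 for Scd4, -0.09 to 0.01 for Acsl5, -0.33 to 0.18 for Mlxipl, -0.42 to 0.05 for Gpam, -0.30 to 0.22 for Acss2, -0.28 to 0.05 for Elovl5 and -0.67 to 0.08 for Pnpla3. The cause of these changes was not tested.

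The labels name no pairing of the mice. Same-numbered mice correlated at 0.036, 0.042 and 0.089 in their deviations from the group means, and differently numbered mice between -0.199 and 0.163. With 3 mice a group these values cannot exclude a pairing. With the replicate block, 1 gene was called over all genes and 0 of the 35, and their median log2 fold change was -0.16. With 3 mice a group, the spread among WT mice limits what could be detected for Elovl6, Tkt, Acaca and Scd1.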
